A study of Homo sapiens with 32 samples.

Results

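The response to hypoxia combined with mTOR inhibition was compared between 2 human breast cell lines, MCF10A and MDA-MB-231. The quantity compared, called the line difference here, was the log2 change from normoxia (N) to hypoxia + PP242 (HPP) in MDA-MB-231 cells minus the log2 change from N to HPP in MCF10A cells. It was taken separately in total mRNA (T) and in polysomal mRNA (P). The comparison used every library of those conditions, 16 of the 32 in the series, with 8 libraries of T and 8 of P and 2 biological replicates for each line, condition and fraction. Of 19815 protein-coding genes in the deposited tables, 12374 passed a filter on low counts in both lines and were tested. The genes named below came from a rule on the size of the line difference, on 33 gene lists and on a few fixed names, and any gene named outside that rule is said to be so.

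MCF10A is a non-tumourigenic, immortalised breast epithelial line, and MDA-MB-231 is a triple-negative breast cancer line. N cells were kept in normoxia with the drug's vehicle. HPP cells spent 24 hours at 0.5% O2 and received 2.5 μM PP242 for 3 hours. The remaining 16 libraries were from hypoxia alone (H) and normoxia with PP242 (NPP), each also with 2 replicates per line and fraction. MCF10A medium held EGF, insulin, hydrocortisone and cholera toxin, and MDA-MB-231 medium held none of them, so that line and medium cannot be told apart. P mRNA was the RNA recovered from polysome fractions of a sucrose gradient, and T mRNA was total RNA.

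At low oxygen the alpha subunits of the hypoxia-inducible factors (HIF) escape prolyl hydroxylation and degradation, and the HIF dimers switch on genes of glucose uptake, glycolysis, pH control and angiogenesis. mTOR, a kinase at the centre of growth control, keeps the 4E-BPs phosphorylated and thereby leaves the cap-binding protein eIF4E free to start translation. PP242 blocks the kinase itself, in both of its complexes. The mRNAs that leave polysomes most readily under such inhibitors begin with a 5′ terminal oligopyrimidine (TOP) tract and encode ribosomal proteins and translation factors.

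The libraries held between 18340916 and 46032327 estimated counts. Values are given as CPM, counts scaled to a common library size and for library composition, in the order replicate 1 and replicate 2. A CPM is a share of its library, so that a general loss of mRNA from polysomes would leave it unchanged, and in bulk RNA fewer cells expressing a gene and less mRNA per cell cannot be told apart. The 8 N and HPP libraries labelled MCF10A held KRT5 at 1270 to 3530 CPM and KRT14 at 496 to 4540 CPM, both basal keratins. In the same libraries the epithelial cadherin CDH1 was at 0 to 0.389 CPM, TP63 at 0 to 0.243, EPCAM at 0.169 to 0.348 and GRHL2 at 0, while the mesenchymal genes VIM, FN1 and CDH2 were at 2080 to 7560, 845 to 8980 and 27.1 to 84.9 CPM. Other junctional genes were present there, with JUP at 52.7 to 614, TJP1 at 9.48 to 71.1 and the placental cadherin CDH3 at 4.01 to 17.8 CPM. These libraries thus held the basal keratins of MCF10A with CDH1, TP63 and GRHL2 at or near 0, and EPCAM was lower than in MDA-MB-231, where it was at 10.3 to 17.9 CPM. They are called MCF10A here by their label alone. The MDA-MB-231 libraries held VIM at 3220 to 5960, CDH11 at 79.9 to 144, ZEB1 at 40.9 to 84.9 and KISS1 at 74.9 to 235 CPM. There CDH2 was at 0.457 to 1.47, TWIST1 at 0, CDH1 at 0.0624 to 0.545 and the claudin CLDN7 at 21.4 to 48.8 CPM. SPARC and CTAG2, also chosen beforehand as markers of MDA-MB-231, were at 0.0817 to 0.763 and 0 to 0.0253 CPM in its libraries. DCN was at 0 to 0.545 CPM in them.

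Some MCF10A libraries stood apart from their replicate. The mean log2 CPM of genes with the shortest transcripts (lowest quartile, up to 3405 bases) minus that of the longest (highest quartile, from 8165 bases) was 0.459 in HPP T replicate 2 and -0.565 in HPP T replicate 1. It was 0.466 in N P replicate 1 and -0.492 in N P replicate 2. The SD over genes of the log2 difference between replicates was 0.866 in MCF10A HPP T, 0.781 in MCF10A N P and 0.665 in MCF10A HPP P, against 0.378 in MCF10A N T and 0.329 to 0.458 in the 4 MDA-MB-231 groups. Each result was therefore also computed without each of the 16 libraries in turn, and for genes named by the rule the calls lost in this way are given beside each line difference printed. Genes picked after their values were seen were not checked in this way.

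HPP changed the mRNAs of MCF10A cells more than those of MDA-MB-231 cells. The line difference passed an adjusted p of 0.05 (edgeR quasi-likelihood test, Benjamini-Hochberg over all genes tested) for 403 genes in T, 3.26% of those tested, and for 519 genes in P, 4.19%. Such a gene is called here. In T, 225 called genes (1.82%) had a line difference above 0, meaning a larger rise or a smaller fall in MDA-MB-231, and 178 (1.44%) had one below 0. In P these numbers were 293 (2.37%) and 226 (1.83%). Calls below 0 outnumbered those above in T without MCF10A HPP T replicate 1. The same held in P without MCF10A HPP P replicate 1, with only the 8 libraries of the fraction and with an offset for transcript length. The change was larger in MCF10A for 388 of the 403 genes in T and 502 of the 519 in P, with 214 larger falls and 174 larger rises in T, and 279 and 223 in P. Over all tested genes the size of the log2 change had a median of 0.516 (MCF10A) and 0.273 (MDA-MB-231) in T, and of 0.634 and 0.316 in P. Across the other settings tried, 0.857% to 7.09% of tested genes were called in T and 0.485% to 10.7% in P.

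**Figure D1:**
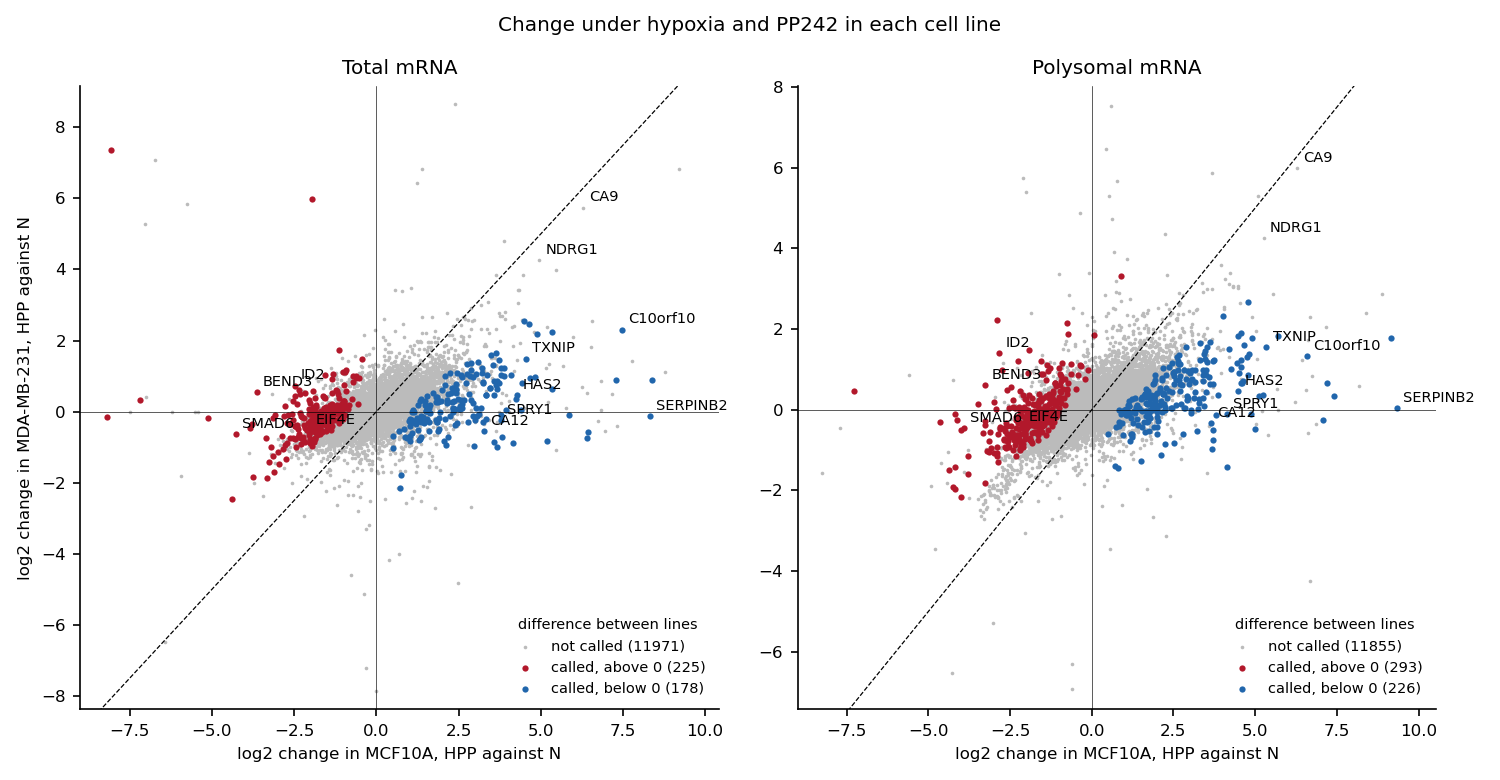
Log2 change from N to HPP in MCF10A (x axis) and in MDA-MB-231 (y axis) for the 12374 tested genes, in T (left) and P (right). Red points are called genes with a line difference above 0 (225 in T, 293 in P), blue points those below 0 (178 and 226), grey points were not called, and the dashed line marks equal change. The change was larger in MCF10A for 388 of the 403 coloured points in T and 502 of the 519 in P.

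Most genes called in T were also called in P. There were 295 genes called in both, all in the same direction, while 224 were called in P only and the rest of the called genes in T only. The test of the difference between fractions, that of translational efficiency (Te, the change in P minus the change in T), called 0 genes (0%) between the lines by edgeR, with 96 at an unadjusted p under 0.05, 2 by DESeq2 and 0 by limma. The labels give the T and P library of a condition and replicate the same culture number, and these fits took them as independent. With a block for each culture, chosen after seeing the data, edgeR called 0 genes as well, with 68 at an unadjusted p under 0.05. For 252 of the 403 genes in T and 352 of the 519 in P the change had the same sign in both lines. Within a line, a gene is said to have risen or fallen only where its change passed an adjusted p of 0.05 both in the joint fit of all libraries and in a fit of that line alone. By this rule 1175 genes (9.50%) rose and 1517 (12.3%) fell in P in MCF10A, against 315 (2.55%) and 246 (1.99%) in MDA-MB-231. In T 6.76% rose and 7.64% fell in MCF10A, against 1.54% and 0.865%. The variation between replicates differed, with a common biological coefficient of variation of 0.325 in MCF10A and 0.15 in MDA-MB-231. It was 0.249 in the joint fit, where both lines shared the spread estimated for each gene. In fits of each line alone the numbers of changed genes were close, at 1792 in MCF10A and 1693 in MDA-MB-231 in T and 2701 and 2526 in P. The larger changes in MCF10A thus came with a larger spread between its replicates, whose part in them was not tested.

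Most genes known to be switched on by HIF rose in both lines, and those called rose further in MCF10A. Of 28 such genes tested, 26 rose in P in MCF10A and 20 in MDA-MB-231, against 9.50% and 2.55% of all genes. In T 23 and 18 rose, against 6.76% and 1.54%. In P they changed by a median of 2.57 log2 units in MCF10A, against 1.38 in MDA-MB-231. The median line difference was -0.95 (-1.05 to -0.83) in P and -0.94 (-1.08 to -0.73) in T, against 0.04 and -0.01 over all genes. In P 9 of the 28 were called, all below 0, against 1.83% of all genes, and in T 6 were, against 1.44%. Brackets after a list median give its range as each library in turn was left out.

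CA12 gave the largest of these line differences. It encodes a membrane carbonic anhydrase with its active site outside the cell, on chromosome 15 (chr15:63321378-63381846, minus strand, GENCODE on GRCh38, as for the positions given hereafter). In MCF10A P mRNA it was at 12.9 and 26.3 CPM in N and 223 and 269.7 in HPP. The MDA-MB-231 libraries held 9.63 and 6.43 in N and 6.73 and 5.96 in HPP. The MCF10A libraries separated fully and the MDA-MB-231 libraries overlapped. The log2 change was a rise of 3.65 in MCF10A and -0.34 in MDA-MB-231, and the line difference was -3.99 (SE 0.492, edgeR adjusted p = 0.000168). In T it was -3.82 (SE 0.495, edgeR adjusted p = 0.000236), and no left-out library or other setting ended either call. The related carbonic anhydrase CA9, a widely used marker of hypoxia, did not show such a gap. Its P mRNA went from 25.9 and 14.1 to 1466 and 1610 CPM in MCF10A and from 0.580 and 0.229 to 31.5 and 18 in MDA-MB-231, from a far lower start. Both lines separated fully, and the line difference was -0.29 (SE 0.902, edgeR adjusted p = 0.919).

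EGLN3 (chr14:33924227-34462774), one of the prolyl hydroxylases that mark HIF alpha subunits for degradation, was nearly absent from normoxic MCF10A. Its P mRNA was at 0.344 and 0.159 CPM in N and 6.50 and 6.96 in HPP in MCF10A. MDA-MB-231 stood at 6.50 and 7.29 in N and 20.2 and 15.7 in HPP. The N libraries of MDA-MB-231 thus lay close to the HPP libraries of MCF10A. It rose by 4.81 in MCF10A and 1.38 in MDA-MB-231, a line difference of -3.43 (SE 0.474, edgeR adjusted p = 0.000324). VLDLR, a lipoprotein receptor, was also low in normoxic MCF10A, with 0.458 and 1.41 CPM in N and 17.3 and 26.7 in HPP in MCF10A P mRNA. Its MDA-MB-231 values were 12.3 and 11 in N and 22.5 and 21.4 in HPP, and the line difference was -3.57 (SE 0.459, edgeR adjusted p = 0.000233).

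The other called HIF targets had smaller gaps. ANGPTL4, a secreted inhibitor of lipoprotein lipase, rose by 3.43 in MCF10A and 1.39 in MDA-MB-231 in P, with a line difference of -2.04 (SE 0.465, edgeR adjusted p = 0.0148) that was lost without 2 of the 16 libraries. SPAG4, a nuclear envelope protein, was called in T at -2.18 (SE 0.566, edgeR adjusted p = 0.0355) and lost its call without 7 of the libraries. In P it was called in 5 other settings, DESeq2 among them, at -2.73 to -1.86. The remaining members named here were picked from the called members after their values were seen. In P they were LOX, which crosslinks collagen, at -1.72, MXI1, a partner of MAX that opposes MYC, at -1.65, and the vasodilator peptide ADM at -1.61. The ER oxidase ERO1A was at -1.42 and INSIG2, which holds back transcription of sterol synthesis genes, at -1.31.

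Several of the best known members were not called. NDRG1, a stress-responsive gene, rose by 5.26 in MCF10A and 4.26 in MDA-MB-231 in P, with a line difference of -0.99 (SE 0.436, edgeR adjusted p = 0.232). The liprin PPFIA4 rose by 5.09 and 5.31, and its line difference was 0.21 (SE 0.609, edgeR adjusted p = 0.915). For DDIT4, an inhibitor of mTORC1, the changes of 1.19 and 0.98 did not pass within either line, and the line difference was -0.21 (SE 0.972, edgeR adjusted p = 0.949). VEGFA, the angiogenic growth factor, rose by 1.92 in MCF10A and changed by 0.42 in MDA-MB-231, where it was already at 154 and 160.1 CPM in N. Its line difference of -1.49 (SE 0.543, edgeR adjusted p = 0.137) did not pass. With a replicate block within each line and fraction VEGFA and NDRG1 were called in P, at -1.52 and -0.996. With the offset for transcript length VEGFA was called at -1.41 in P and -1.16 in T. The standard errors of CA9 and DDIT4 were near 1 log2 unit, so that a gap of that size, or one well above it, could have gone undetected for them.

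**Figure D2:**
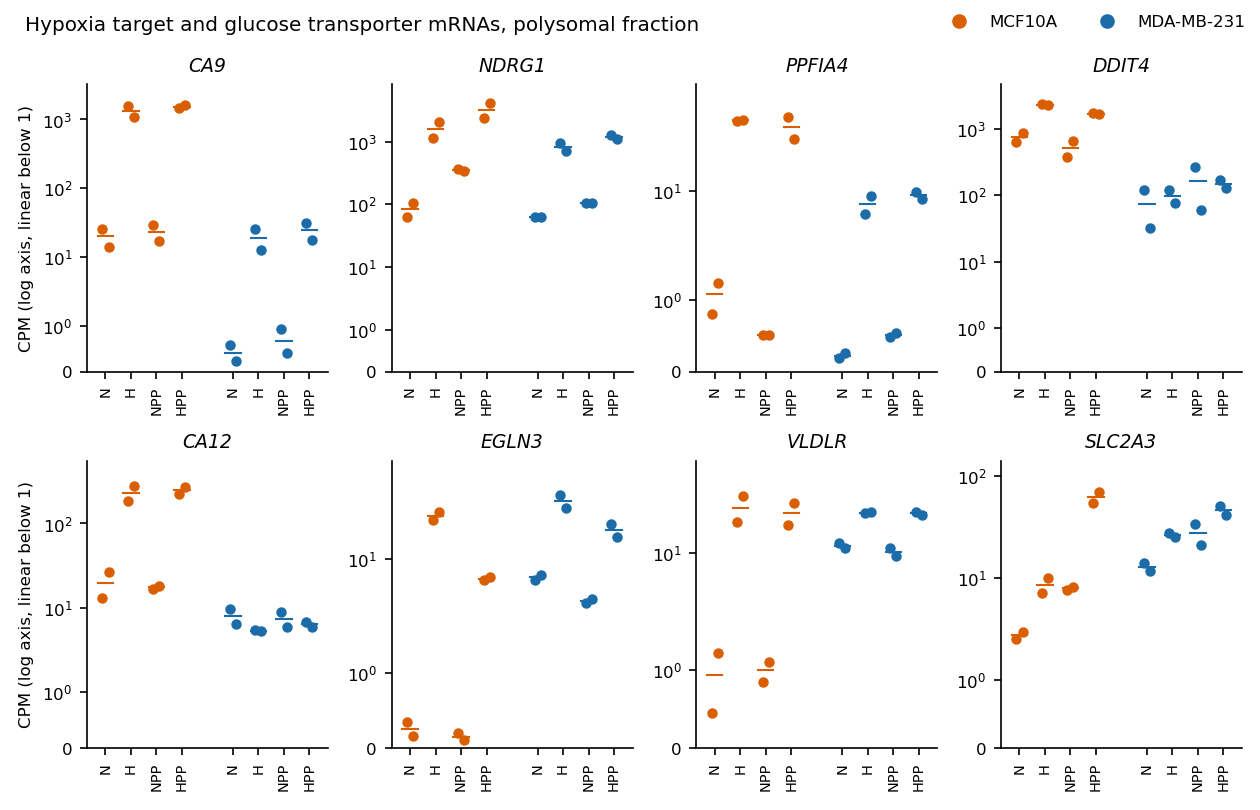
P mRNA of 8 hypoxia-responsive genes (y axis, CPM, log scale that is linear below 1) in N, H, NPP and HPP, with MCF10A and MDA-MB-231 side by side. Points are libraries (2 per group) and bars their means. CA9, NDRG1, PPFIA4 and DDIT4 were not called. CA12, EGLN3, VLDLR and SLC2A3 were called and climb from a lower start in MCF10A or climb there only.

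ACGTG is one form of the core letters that HIF binds, and the only one counted here. The promoters of 3 called and 2 uncalled HIF targets are shown. Each is RefSeq sequence on GRCh38.p14, 5′ to 3′ on the strand of the gene, from 250 bases before to 50 after its start in RefSeq, which for EGLN3 lies inside the GENCODE span given above. Capitals mark ACGTG, written CACGT where it lies on the other strand. The windows are chr15:63381797-63382096 for CA12, chr14:33951025-33951324 for EGLN3 and chr5:122078210-122078509 for LOX, all on the minus strand, and chr9:35673678-35673977 for CA9 and chr10:72273674-72273973 for DDIT4 on the plus strand.
CA12: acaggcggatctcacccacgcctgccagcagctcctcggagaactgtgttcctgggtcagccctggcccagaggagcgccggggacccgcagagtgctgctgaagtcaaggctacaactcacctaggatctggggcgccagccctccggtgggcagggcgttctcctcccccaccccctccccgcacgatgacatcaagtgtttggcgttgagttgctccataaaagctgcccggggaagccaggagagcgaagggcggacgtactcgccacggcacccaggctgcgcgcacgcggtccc
EGLN3: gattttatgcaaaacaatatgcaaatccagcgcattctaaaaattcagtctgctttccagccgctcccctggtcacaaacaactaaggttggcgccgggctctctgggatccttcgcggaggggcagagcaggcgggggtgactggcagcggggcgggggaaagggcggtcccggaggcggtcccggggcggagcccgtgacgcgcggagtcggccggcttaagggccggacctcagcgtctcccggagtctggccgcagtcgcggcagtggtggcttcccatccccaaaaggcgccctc
LOX: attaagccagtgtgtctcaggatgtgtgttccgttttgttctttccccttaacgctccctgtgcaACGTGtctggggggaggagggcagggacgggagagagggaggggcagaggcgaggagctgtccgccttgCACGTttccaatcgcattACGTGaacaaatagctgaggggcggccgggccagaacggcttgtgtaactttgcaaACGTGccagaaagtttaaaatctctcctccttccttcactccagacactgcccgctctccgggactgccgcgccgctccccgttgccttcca
CA9: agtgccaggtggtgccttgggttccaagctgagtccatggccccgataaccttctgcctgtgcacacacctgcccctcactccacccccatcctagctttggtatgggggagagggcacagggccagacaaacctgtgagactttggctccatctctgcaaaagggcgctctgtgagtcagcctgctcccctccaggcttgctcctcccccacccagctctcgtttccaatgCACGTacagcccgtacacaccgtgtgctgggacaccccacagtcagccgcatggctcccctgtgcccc
DDIT4: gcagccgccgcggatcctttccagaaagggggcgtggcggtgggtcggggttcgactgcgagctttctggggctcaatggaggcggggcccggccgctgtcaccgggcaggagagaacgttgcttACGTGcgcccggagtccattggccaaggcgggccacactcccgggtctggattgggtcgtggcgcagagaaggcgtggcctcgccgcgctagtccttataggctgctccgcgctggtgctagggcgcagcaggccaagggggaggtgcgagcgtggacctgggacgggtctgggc
The CA12 and EGLN3 windows held no ACGTG, and other forms of the core were not counted. The LOX window held 4, beginning 185, 116, 98 and 42 bases before the start, and those of CA9 and DDIT4 held 1 each, at 18 and 125 bases before it. ACGTG on either strand stood in 21.4% of the 35116 promoters, in 26.8% of the 10013 tested genes with a promoter entry and in 15 of 23 matched HIF targets (65.2%). Among these it stood in 4 of the 9 called in T or P (44.4%) and in 11 of the 14 not called (78.6%). It also forms part of CACGTG, which stood in 7.26% of all promoters and in none of the 5 shown. Of the genes with an entry, 59 of 212 called below 0 in T or P (27.8%) and 77 of 284 called above 0 (27.1%) held ACGTG. VEGFA, HILPDA, BNIP3L, NDRG1 and SPAG4 had no entry.

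Of 24 genes of glucose uptake and glycolysis tested, 12 rose in P in MCF10A and 9 in MDA-MB-231, against 9.50% and 2.55% of all genes. In T 17 rose in MCF10A and 8 in MDA-MB-231, against 6.76% and 1.54%. The median line difference was -0.40 (-0.60 to -0.22) in P and -0.70 (-1.10 to -0.13) in T. In P 4 were called, all below 0, against 1.83% of all genes, and in T 2 were called below 0 (1.44%) and 1 above (1.82%). The ends of the T range were without MCF10A HPP T replicate 1 and without replicate 2 of that group. SLC2A3, a high-affinity glucose transporter, went from 2.52 and 2.96 to 53.6 and 69.6 CPM in MCF10A P mRNA and from 14.1 and 11.8 to 51 and 41.5 in MDA-MB-231. The HPP libraries of both lines lay between 41.5 and 69.6 CPM, and the N libraries of MCF10A lay lowest. The line difference was -2.65 (SE 0.408, edgeR adjusted p = 0.000884). ENO2, an enolase, rose by 2.64 in MCF10A and 1.22 in MDA-MB-231, a line difference of -1.42 (SE 0.263, edgeR adjusted p = 0.00317) in P and -1.50 (SE 0.263, edgeR adjusted p = 0.00337) in T. The transporter SLC2A1 and the glycogen synthase GYS1 were called in P at -2.10 and -1.35, and the calls were lost without 5 and 6 of the libraries.

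PFKFB3 went the other way. It makes the activator of phosphofructokinase, and in T it was at 34.9 and 47 CPM in N and 29.8 and 30.7 in HPP in MCF10A. Its MDA-MB-231 values were 24.4 and 26.6 in N and 71.3 and 71.9 in HPP. It rose in MDA-MB-231, by 1.49, and changed by -0.44 in MCF10A, with a line difference of 1.93 (SE 0.479, edgeR adjusted p = 0.0278) that was lost without 7 of the libraries. The p53 target TIGAR, which removes the product of PFKFB3, fell by 3.15 in MCF10A and changed by -0.77 in MDA-MB-231 in P, a line difference of 2.38 (SE 0.495, edgeR adjusted p = 0.00752).

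TXNIP (chr1:145992435-145996579), an arrestin-like protein that holds back glucose uptake, was the called gene with the largest line difference in a list of receptor tyrosine kinases and FOXO targets. In MCF10A P mRNA it was at 47.2 and 80.3 CPM in N and 1616 and 3565 in HPP. In MDA-MB-231 it was at 154 and 171 in N and 399 and 553 in HPP. The groups did not overlap in either line, and MCF10A started lower and ended higher. The rises were 5.34 and 1.55, and the line difference was -3.79 (SE 0.455, edgeR adjusted p = 0.000156) in P and -3.05 (SE 0.450, edgeR adjusted p = 0.000889) in T. In that list of 23 genes, in P 3 rose in MDA-MB-231 and 7 in MCF10A, against 2.55% and 9.50% of all genes, with 3 called below 0 in P (1.83%) and a median line difference of -0.27 (-0.55 to 0.072). EPHA2, an ephrin receptor, and BCL6, a repressor under FOXO control, were called in P at -1.36 and -1.58, and lost the call without 12 and 6 of the libraries.

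HIF1A, which encodes HIF-1α and lies at chr14:61695513-61748259, was looked at after its values were seen. Its P mRNA was at 295 and 424 CPM in N and 466 and 707 in HPP in MCF10A. The MDA-MB-231 libraries held 179 and 179 in N and 62.2 and 74.9 in HPP. The MCF10A values were higher in HPP and those of MDA-MB-231 were lower, without overlap. It fell by 1.38 in MDA-MB-231 and changed by 0.706 in MCF10A, and the line difference was -2.09 (SE 0.509, edgeR adjusted p = 0.0221). In T it was -1.23 (SE 0.506, edgeR adjusted p = 0.239).

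Of 23 genes of the extracellular matrix and its turnover tested, 10 rose in P in MCF10A and 3 in MDA-MB-231, against 9.50% and 2.55% of all genes. In P 5 were called below 0 (1.83%) and none above (2.37%), in T 3 below (1.44%) and 1 above (1.82%), and the median line difference was -0.82 (-0.97 to -0.51) in P and -0.57 (-0.66 to -0.44) in T. HAS2, which makes hyaluronan, was at 0.496 and 0.615 CPM in N and 12 and 13.2 in HPP in MCF10A P mRNA. It was at 28.6 and 25.1 in N and 36.4 and 37.1 in HPP in MDA-MB-231. Every MDA-MB-231 library lay above every MCF10A library. It rose by 4.48 in MCF10A and changed by 0.45 in MDA-MB-231, and the line difference was -4.02 (SE 0.454, edgeR adjusted p = 7.7e-05) in P and -3.80 (SE 0.448, edgeR adjusted p = 9.63e-05) in T.

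LAMB3 (chr1:209614870-209652425), the beta chain of the basement membrane protein laminin-332, was at similar levels in N. It went from 241 and 391 to 2952 and 4105 CPM in MCF10A P mRNA and from 246 and 229.8 to 507 and 439.8 in MDA-MB-231. Both lines rose, by 3.48 and 0.99, and the line difference was -2.49 (SE 0.365, edgeR adjusted p = 0.000607). LAMA3, the alpha chain of the same protein, was called in P at -2.25 without passing within either line, and its call was lost without 6 libraries. TIMP3, an inhibitor of matrix metalloproteinases, went from 25.4 and 23 to 221 and 289 CPM in MCF10A. MDA-MB-231 stood at 494 and 312 in N and 573 and 414 in HPP, with overlapping groups, and the line difference was -3.11 (SE 0.536, edgeR adjusted p = 0.00201). SERPINB2, an inhibitor of urokinase, had 0 counts in both normoxic MCF10A libraries of both fractions, and its T call was lost without either of them. Against a floor of 3 counts over the N group, its HPP level there was at least 29.3-fold higher in T and at least 57-fold higher in P, while MDA-MB-231 had 4.18 and 4.98 CPM in N and 3.41 and 5.98 in HPP in P. The metalloproteinase MMP14, picked after its values were seen, was called in P at -1.27, and MMP15, called in T at 2.10, lost its call without 7 libraries.

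Of 22 immediate early and feedback genes of the ERK pathway tested, 9 rose in P in MCF10A and none passed in MDA-MB-231. Of all genes 9.50% and 2.55% rose. Of the 22, 5 were called below 0 in P (1.83% of all genes) and 4 in T (1.44%), and the median line difference was -1.23 (-1.41 to -0.35) in P and -0.39 (-0.61 to -0.24) in T. The P median was nearest 0 without MCF10A HPP P replicate 2. PHLDA1, induced by growth factor signals, went from 83.5 and 93.7 to 241 and 363 CPM in MCF10A P mRNA. Its MDA-MB-231 values were 751 and 704 in N and 640.3 and 626 in HPP, lower in HPP without overlap but not past the threshold. Its line difference was -1.97 (SE 0.322, edgeR adjusted p = 0.00145). DUSP6, a phosphatase of ERK, was called in P at -1.56 (SE 0.321, edgeR adjusted p = 0.007), and SPRY2, an inhibitor of receptor signalling to ERK, at -1.53 (SE 0.314, edgeR adjusted p = 0.00695). Both were several times higher in MDA-MB-231 than in MCF10A in N, with DUSP6 at 269 and 234 against 9.28 and 10.1 CPM. Each lost its call in P without 1 of the 16 libraries.

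SPRY1 (chr4:123396795-123403760), the relative of SPRY2, was close to absent in normoxic MCF10A. It was at 0 and 0.251 CPM in N and 3.42 and 1.97 in HPP in MCF10A P mRNA, and at 29.2 and 23.7 and 25.6 and 23.2 in MDA-MB-231. The MDA-MB-231 groups overlapped and all lay above every MCF10A library. The line difference was -4.25 (SE 0.632, edgeR adjusted p = 0.000618) in P and -4.04 (SE 0.606, edgeR adjusted p = 0.00105) in T. In P its estimate ran from -9.61 to -3.52 as single libraries were left out, the former without the only normoxic MCF10A library of P that held a count. DUSP4, another ERK phosphatase and picked after its values were seen, was called in P at -1.37.

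Inflammatory genes had a median line difference of -0.95 in P over 16 genes. It was -1.29 without MDA-MB-231 N P replicate 2 and -0.46 without replicate 1. In T the median was -0.75, with -1.14 without MDA-MB-231 N T replicate 2 and -0.069 without replicate 1. In P 2 rose in MDA-MB-231 and 7 in MCF10A, against 2.55% and 9.50% of all genes. In P 2 were called below 0 (1.83% of all genes), and in T 1 above (1.82%) and 1 below (1.44%). The cytokines IL1A and IL1B, picked after their values were seen, were called in P at -4.97 and -4.65 (edgeR adjusted p = 0.00587 and 0.026). Both fell short of the naming rule, by a low level or by overlap of their N and HPP libraries. CXCL8, a neutrophil attractant, rose by 2.57 in MCF10A and 1.54 in MDA-MB-231 in P and was not called, at -1.03 (SE 0.547, edgeR adjusted p = 0.342), but was with a replicate block within each line and fraction, at -0.98. CSF1, the macrophage growth factor, fell by 2.72 in MCF10A in T, and its line difference of 2.41 (SE 0.651, edgeR adjusted p = 0.0441) was lost without 12 of the libraries. IRF9, a subunit of the interferon-activated factor ISGF3, was the one called gene of 30 in the interferon list, near the share of all genes called below 0 (1.83% in P and 1.44% in T). The list's median line difference was -0.34 (-0.69 to -0.069) in P and -0.67 (-0.89 to -0.14) in T. IRF9 went from 13.2 and 7.13 to 81.6 and 86.8 CPM in MCF10A P mRNA and from 17.5 and 13.7 to 33.3 and 28.8 in MDA-MB-231, a line difference of -2.06 (SE 0.348, edgeR adjusted p = 0.00196).

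Of 17 ID genes and genes of the BMP pathway tested, 7 fell and 1 rose in P in MCF10A, where 12.3% and 9.50% of all genes did. In MDA-MB-231 1 fell and 2 rose, where 1.99% and 2.55% of all genes did. The median line difference was 0.68 (0.52 to 0.81) in P and 0.92 (0.68 to 1.69) in T. In P 4 were called above 0 and 1 below, against 2.37% and 1.83% of all genes, and in T 4 above, against 1.82%. ID2 (chr2:8678845-8684461), which dimerises with and disables helix-loop-helix factors, moved in opposite directions. It was at 46.4 and 26.5 CPM in N and 5.08 and 5.18 in HPP in MCF10A P mRNA. It was at 0.658 and 0.458 in N and 1.62 and 1.32 in HPP in MDA-MB-231, a low level throughout. It fell by 2.83 in MCF10A and rose by 1.41 in MDA-MB-231, and the line difference was 4.24 (SE 0.524, edgeR adjusted p = 0.000168). In T, where the MDA-MB-231 groups overlapped, it was 3.22 (SE 0.523, edgeR adjusted p = 0.00174).

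Its relatives ID3 and ID1 fell in MCF10A. ID3 fell by 4.40 in MCF10A and 2.46 in MDA-MB-231 in T, and its line difference was 1.95 (SE 0.453, edgeR adjusted p = 0.0187) in T and 1.35 (SE 0.452, edgeR adjusted p = 0.102) in P. The T call was lost without 5 of the libraries, and the P difference was called with only the 16 libraries of N and HPP, with a replicate block within each line and fraction and with the offset for transcript length. ID1 fell by 3.79 in MCF10A in P, from 1187 and 744 to 71.1 and 69 CPM, and its line difference of 2.64 (SE 0.661, edgeR adjusted p = 0.0252) was lost without 6 of the libraries. SMAD6 (chr15:66702236-66782849), an inhibitory SMAD of the BMP pathway, went from 14.8 and 17.6 to 0.920 and 1.22 CPM in MCF10A P mRNA. In MDA-MB-231 it was at 11.9 and 7.21 in N and 7.69 and 6.17 in HPP, with overlapping groups. The line difference was 3.45 (SE 0.453, edgeR adjusted p = 0.000284) in P and 3.66 (SE 0.465, edgeR adjusted p = 0.000199) in T.

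Of the secreted members, NOG, which traps BMPs outside the cell, rose in MDA-MB-231 and not in MCF10A. It was at 14.6 and 7.36 and 6.06 and 5.57 CPM in MCF10A P mRNA and went from 149 and 111.8 to 273 and 309 in MDA-MB-231, a line difference of 2.07 (SE 0.356, edgeR adjusted p = 0.00201). BMP2, a ligand of the pathway, was called below 0 in P at -3.90 (SE 0.900, edgeR adjusted p = 0.0158), and lost its call without 5 of the libraries, with an estimate of -2.29 without MCF10A HPP P replicate 2. In the TGF-beta list of 20 genes the median line difference was -0.16 (-0.24 to 0.10) in P and 0.26 (0.049 to 0.32) in T. PMEPA1, a target that dampens the pathway, fell by 2.45 in MCF10A in P and had a line difference of 1.90 (SE 0.448, edgeR adjusted p = 0.0181), lost without 3 of the libraries. The ligand TGFB2 was called in T at 2.91 and lost its call without 7 of the libraries. WNT7B, a WNT ligand, fell by 3.99 in MCF10A in P, from 11.6 and 14.2 to 0.666 and 0.942 CPM, and its line difference was 3.49 (SE 0.641, edgeR adjusted p = 0.00298).

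Notch genes were split. Of 15 tested, 2 were called above 0 and 1 below in each fraction, against 2.37% and 1.83% of all genes in P and 1.82% and 1.44% in T, and the median line difference was -0.22 (-0.76 to 0.23) in P and -0.01 (-0.23 to 0.63) in T. The ligand JAG2 rose by 1.87 in MDA-MB-231, from 0.735 and 0.772 to 2.85 and 2.71 CPM in P, while MCF10A was at 3.02 and 4.62 in N and 2.00 and 2.60 in HPP, a line difference of 2.61 (SE 0.552, edgeR adjusted p = 0.00862). HES1, a repressor induced by Notch, fell by 3.25 in MCF10A and changed by -0.39 in MDA-MB-231, and HES2, a relative, rose by 5.70 and 1.82. Their line differences in P were 2.87 (SE 0.556, edgeR adjusted p = 0.0046) and -3.87 (SE 0.728, edgeR adjusted p = 0.00358), and each was lost without 1 library, while their calls in T were lost without 12 and 11. Of 45 HOX and DLX genes in the list 8 were tested, with a median line difference of 1.08 (0.59 to 1.50) in P and 1.21 (0.74 to 1.70) in T. HOXC8 and DLX1 were called above 0 in both fractions, against 2.37% of all genes in P and 1.82% in T. Picked after their values were seen, they had line differences of 4.09 and 2.12 in P. They too fell short of the naming rule, by a low level or by overlap of N and HPP libraries.

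**Figure D3:**
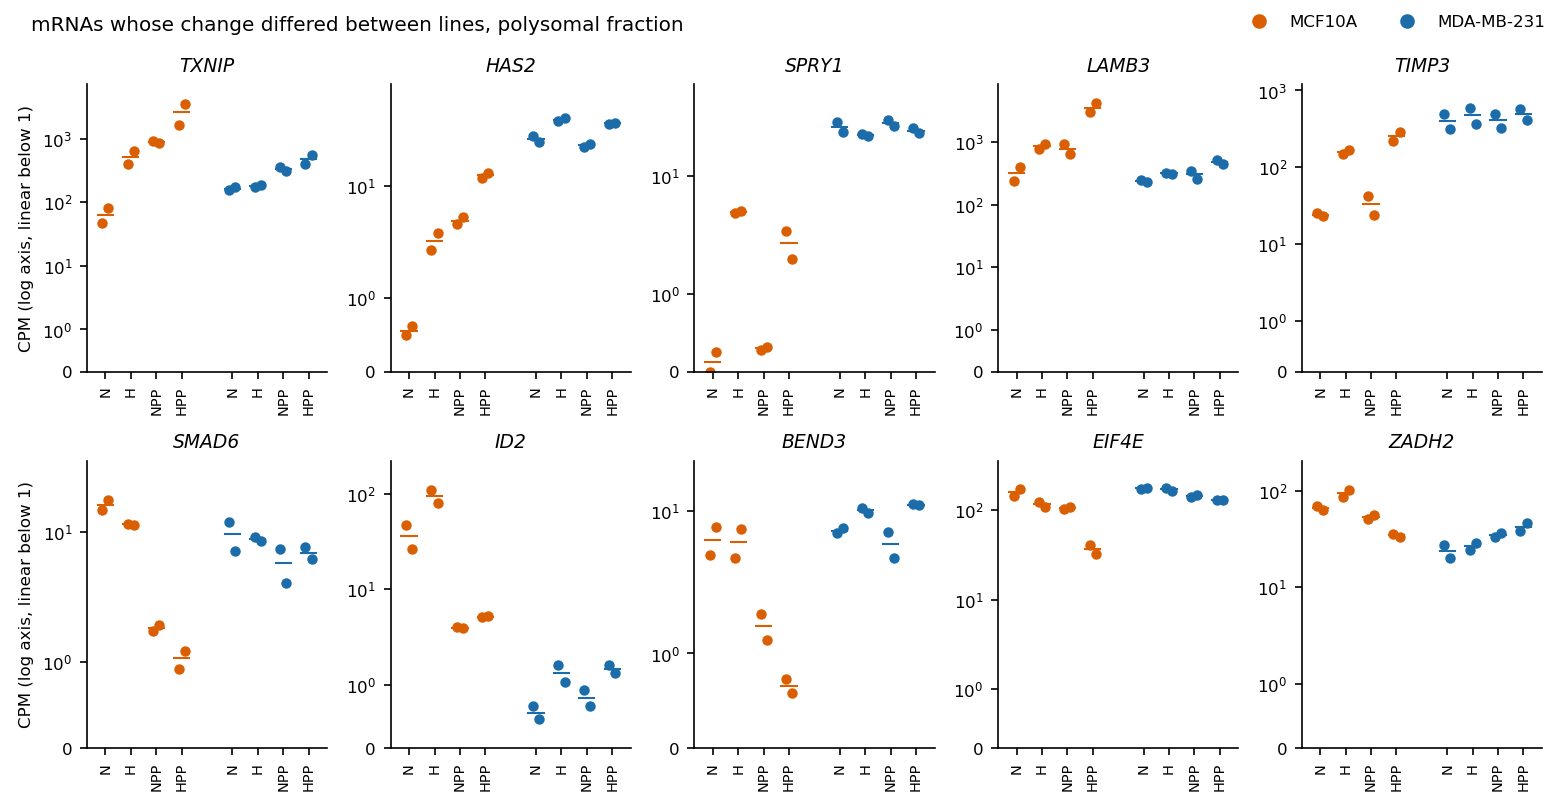
P mRNA of 10 genes with called line differences (y axis, CPM, log scale that is linear below 1) in N, H, NPP and HPP, with MCF10A and MDA-MB-231 side by side. Points are libraries (2 per group) and bars their means. TXNIP, HAS2, SPRY1, LAMB3 and TIMP3 climb in MCF10A, SMAD6, ID2, BEND3, EIF4E and ZADH2 drop there, and ID2 and ZADH2 climb in MDA-MB-231.

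The mRNA of the cap-binding protein itself fell in MCF10A. EIF4E (chr4:98879276-98929133) was at 143 and 175 CPM in N and 41.2 and 32.6 in HPP in MCF10A P mRNA. The MDA-MB-231 libraries held 174 and 177 in N and 132 and 129 in HPP. HPP lay below N without overlap in both lines, and the MCF10A HPP libraries lay lowest of all. It fell by 2.11 in MCF10A and changed by -0.43 in MDA-MB-231, a line difference of 1.68 (SE 0.253, edgeR adjusted p = 0.000701) in P and 1.50 (SE 0.253, edgeR adjusted p = 0.00232) in T. No left-out library ended either call, and the P call was lost with only the 8 libraries of the fraction. It was the only called gene of 21 in a list of eIF4E, the 4E-BPs and mTOR inhibitors. Of all genes 2.37% were called above 0 in P and 1.82% in T. The list's median line difference was 0.09 (-0.10 to 0.22) in P.

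Ribosomal protein mRNAs fell in P in both lines. Of 79 tested, 74 fell in P in MCF10A and 63 in MDA-MB-231, against 12.3% and 1.99% of all genes, and none passed in T in either line. Their mean log2 CPM in P was 11.09 and 9.968 in N and 8.31 and 7.449 in HPP in MCF10A. In MDA-MB-231 it was 10.01 and 9.838 in N and 7.964 and 8.043 in HPP. N and HPP did not overlap in either line, and the N replicates of MCF10A stood further apart than the other pairs. Not a single member was called between the lines in T, P or Te. The median line difference was 0.81 in P and -0.53 in T, and 1.37 in Te. These medians rested on the libraries that stood apart. The P median was 0.17 without MCF10A N P replicate 1 and 1.29 without MCF10A HPP P replicate 1. Without the same libraries the Te median was 0.76 and 1.87. The T median was -0.000455 without MCF10A HPP T replicate 2 and -0.92 without replicate 1 of that group. Ribosomal protein genes have near-identical copies, so that single counts are uncertain. For Te the median standard error of a line difference was 0.879 log2 units, and 6 of the 79 had an unadjusted p under 0.05.

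**Figure D4:**
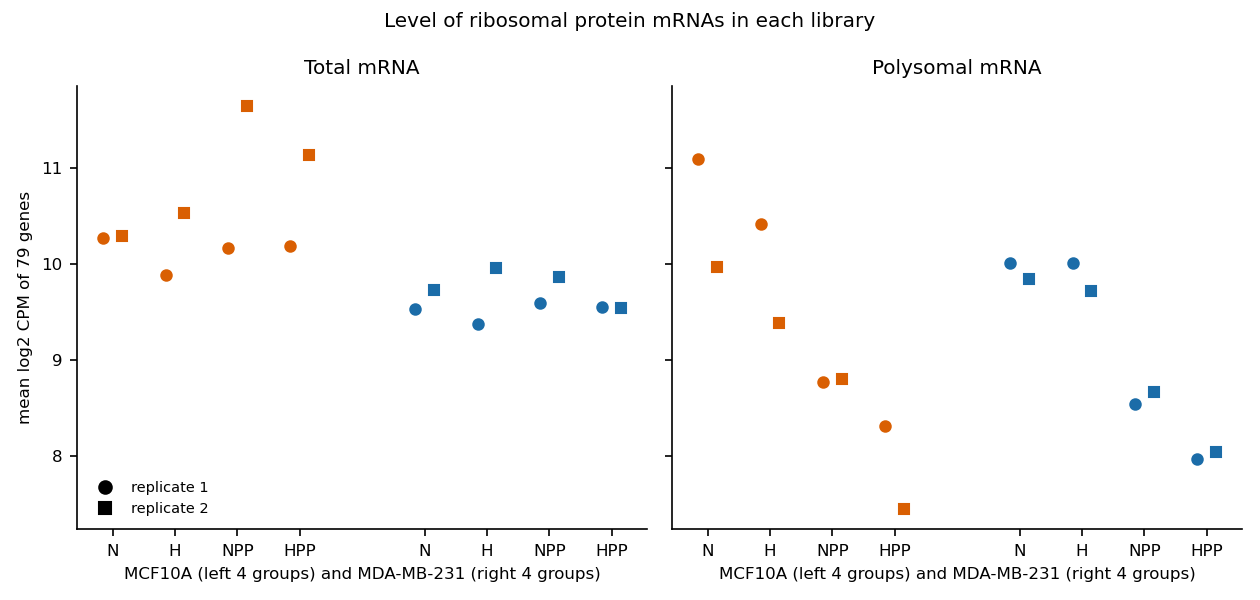
Mean log2 CPM of 79 ribosomal protein genes (y axis) in each T and P library of N, H, NPP and HPP in MCF10A and MDA-MB-231. Circles are replicate 1 and squares replicate 2. In P the N libraries lie at 9.838 to 11.09 and the HPP libraries at 7.449 to 8.31, whereas T stays between 9.528 and 11.13 in these conditions.

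Within MCF10A, Te passed as lower for 117 genes in the joint fit, 63 of them ribosomal proteins and 14 other TOP mRNAs, but for 0 with the culture block, where 649 had an unadjusted p under 0.05 and the fit had 8 residual degrees of freedom. In MDA-MB-231 Te passed for 0 genes by edgeR, with 169 at an unadjusted p under 0.05 (150 and 0 calls with the culture block), and this contrast between the lines is covered by the test of the Te difference above. Among 27 other TOP mRNAs 20 fell in P in MCF10A and 8 in MDA-MB-231, against 12.3% and 1.99% of all genes. NPM1, the nucleolar chaperone nucleophosmin, was the called one, where 2.37% of all genes were called above 0 in P. It went from 5623 and 4245 to 1236 and 993 CPM in MCF10A P mRNA and from 3419 and 3125 to 1746 and 1761 in MDA-MB-231, a line difference of 1.25 (SE 0.348, edgeR adjusted p = 0.0461) that was lost without 12 of the libraries. In T its line difference was -0.06.

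Of 29 ribosome biogenesis factors 15 fell in P in MCF10A and 7 in MDA-MB-231, against 12.3% and 1.99% of all genes. In each fraction 2 were called, above 0, against 2.37% of all genes in P and 1.82% in T. The median line difference was 0.28 (0.14 to 0.35) in P and 0.32 (0.20 to 0.38) in T. RRS1, needed to assemble the large subunit, went from 55.4 and 49.1 to 5.03 and 5.27 CPM in MCF10A T mRNA. In MDA-MB-231 it went from 51.2 and 58.8 to 15.1 and 15.3. Both lines separated fully and both fell, by 3.34 and 1.86, a line difference of 1.49 (SE 0.324, edgeR adjusted p = 0.0126) that was lost without MCF10A N T replicate 1 or MDA-MB-231 N T replicate 1. UBTF, a factor of RNA polymerase I, fell by 1.48 in MCF10A and changed by -0.14 in MDA-MB-231 in T, a line difference of 1.34 (SE 0.262, edgeR adjusted p = 0.00625). It was 1.07 (SE 0.262, edgeR adjusted p = 0.0221) in P, lost there without 5 of the libraries.

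Of 42 DNA replication genes tested, 25 fell in P in MCF10A and 9 in MDA-MB-231, against 12.3% and 1.99% of all genes. The median line difference was 0.53 (0.45 to 0.58) in P and 0.39 (0.24 to 0.63) in T. In P 4 were called and in T 3, all above 0, against 2.37% and 1.82% of all genes. FEN1, the flap endonuclease of lagging-strand synthesis, went from 119 and 122 to 26.3 and 33.7 CPM in MCF10A T mRNA and from 226 and 259 to 181 and 180.4 in MDA-MB-231. N and HPP did not overlap in either line. Its line difference was 1.58 (SE 0.313, edgeR adjusted p = 0.00647) in T and 1.35 (SE 0.312, edgeR adjusted p = 0.0158) in P, the latter lost without 5 of the libraries. The origin factor ORC6 and the polymerase subunits POLA2 and POLE2 were called in P at 1.37, 1.42 and 1.41, and the helicase subunit MCM6 and the initiation factor MCM10 in T at 1.07 and 1.48. Each of these 5 calls was lost without 3 to 6 of the libraries.

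Cyclins and regulators of the G1 to S step had a median line difference of 0.64 (0.55 to 0.77) in P and 0.54 (0.50 to 0.94) in T over 16 genes, with 2 called in P (2.37% of all genes) and 3 in T (1.82%), all above 0. CCNE1, which encodes cyclin E1, was at 29.6 and 31.2 CPM in N and 6.38 and 7.57 in HPP in MCF10A P mRNA. MDA-MB-231 stood at 11.8 and 13.5 in N and 10.2 and 12.6 in HPP, with overlapping groups. It fell by 2.12 in MCF10A, and the line difference was 1.97 (SE 0.326, edgeR adjusted p = 0.00156) in P and 1.84 (SE 0.328, edgeR adjusted p = 0.00362) in T. CDC25A, the phosphatase that activates the cyclin E kinase, fell in both lines, by 3.25 and 1.82 in P, a line difference of 1.43 (SE 0.325, edgeR adjusted p = 0.0145) that was lost without 4 of the libraries. E2F2, a transcription factor of S phase genes, was called in T at 1.82 and lost its call without 5 of the libraries. In a list of 26 mitosis genes none was called in either fraction, and the median line difference was 0.18 (0.11 to 0.30) in P and 0.38 (0.27 to 0.49) in T.

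Of 27 replication-dependent histone genes tested out of 71 in the list, 10 rose in P in MDA-MB-231 and 16 in MCF10A. Of all genes 2.55% and 9.50% did. In T 2 were called below 0 (1.44% of all genes) and in P 1 (1.83%). The median line difference was -0.85 (-1.36 to -0.27) in P and -1.02 (-1.63 to -0.22) in T. The ends of both ranges came from leaving out 1 of the MCF10A HPP replicates. HIST1H4H, a histone H4 gene, went from 0.388 and 0.192 to 6.55 and 16.8 CPM in MCF10A T mRNA and from 2.50 and 2.05 to 10.6 and 11.1 in MDA-MB-231, a line difference of -3.10 (SE 0.748, edgeR adjusted p = 0.0232), lost without 6 of the libraries. HIST2H2AA4, a histone H2A gene with a near-identical neighbour, was called in T at -6.39 (SE 1.63, edgeR adjusted p = 0.0325), where its MCF10A HPP replicates were 8.82 and 105.9 CPM. The call was lost without 6 of the libraries, and the estimate was -3.70 without MCF10A HPP T replicate 2 and -13.04 without MCF10A N T replicate 1. Histone genes are near-identical copies and their mRNAs mostly lack a poly(A) tail, so that their counts are uncertain.

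Of 38 stress genes of the ATF4 pathway tested, 3 rose and 8 fell in P in MCF10A, against 9.50% and 12.3% of all genes. In P 3 were called above 0 and 2 below, against 2.37% and 1.83%, and the median line difference was 0.12 (-0.12 to 0.21) in P and 0.16 (0.064 to 0.27) in T. DDIT3, the stress factor CHOP, went from 10 and 5.21 to 86.2 and 62.1 CPM in MCF10A P mRNA. Its MDA-MB-231 values were 15.4 and 19.7 in N and 18.7 and 21 in HPP. The MCF10A groups separated widely and those of MDA-MB-231 overlapped, and the line difference was -3.11 (SE 0.591, edgeR adjusted p = 0.00395). PPP1R15A (GADD34), which brings a phosphatase to eIF2α, rose in both lines, by 3.61 and 1.67 in P, a line difference of -1.94 (SE 0.495, edgeR adjusted p = 0.0281) lost without 5 of the libraries. On the other side were CEBPG, a dimer partner of ATF4, which fell by 2.31 in MCF10A in P with a line difference of 1.85 (SE 0.318, edgeR adjusted p = 0.00201), and the serine synthesis enzyme PSAT1, which fell by 1.42 with a line difference of 1.18 (SE 0.272, edgeR adjusted p = 0.016) lost without 4 of the libraries. MTHFD2, a mitochondrial folate enzyme picked after its values were seen, was called in P at 1.15 (edgeR adjusted p = 0.00207).

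In several other lists 1 or 2 members were called, where 3.26% of all genes were called in T and 4.19% in P. Of 18 p53 targets 2 were called above 0 in each fraction, against 2.37% of all genes in P and 1.82% in T, with a median line difference of 0.25 (0.17 to 0.33) in P and 0.39 (0.27 to 0.46) in T. AEN, a p53-induced nuclease, fell in both lines, from 43 and 47.6 to 2.06 and 2.74 CPM in MCF10A and from 31.2 and 47.4 to 10.2 and 10.5 in MDA-MB-231 in P, a line difference of 2.31 (SE 0.380, edgeR adjusted p = 0.00153). In T the calls of AEN and TIGAR, the other called p53 target, were lost without 1 and 9 of the libraries. Of 13 genes of iron handling, TFRC, the transferrin receptor, was the called one. It fell by 2.32 in MCF10A in T, from 134 and 130.1 to 28.8 and 24.3 CPM, while MDA-MB-231 was at 304 and 286 in N and 451 and 377 in HPP. Its line difference was 2.81 (SE 0.662, edgeR adjusted p = 0.0201) in T and 1.84 (SE 0.655, edgeR adjusted p = 0.129) in P, and the T call was lost without 6 of the libraries, while the P difference was called with a replicate block within each line and fraction and with the offset for transcript length. XBP1, a factor of the unfolded protein response and the called one of 21 such genes, fell by 1.06 in MCF10A in T with a line difference of 1.11 (SE 0.294, edgeR adjusted p = 0.0402), lost without 8 libraries. The 31 genes of sterol and fatty acid synthesis had a median line difference of -0.25 (-0.63 to 0.14) in P and -0.20 (-0.49 to 0.32) in T. FLCN, which relays amino acid supply to mTORC1 and was the called one of 28 lysosomal and autophagy genes, rose in both lines in P, by 2.68 and 1.14, a line difference of -1.54 (SE 0.389, edgeR adjusted p = 0.0263) lost without 5 of the libraries.

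Genes that passed within both lines in opposite directions were few. In the joint fit there were 6 in T and 5 in P, in the fits of each line alone 9 and 13, and by both 2 in T and 3 in P. ZADH2 (chr18:75195113-75209139), a reductase, did so in both fractions. It was at 68.7 and 62.5 CPM in N and 35.6 and 33.4 in HPP in MCF10A P mRNA. It was at 27 and 20.3 in N and 37.8 and 46 in HPP in MDA-MB-231. The 2 lines thus started apart and met in HPP, with no overlap of N and HPP in either. It fell by 0.93 and rose by 0.82, and the line difference was 1.75 (SE 0.256, edgeR adjusted p = 0.000571) in P and 1.75 (SE 0.256, edgeR adjusted p = 0.000889) in T. ANKRD1 (chr10:90912096-90921087) was the called one of 14 targets of YAP and TEAD, where 2.37% of all genes were called above 0 in P and 1.82% in T. It went from 196 and 230.5 to 95.3 and 117 CPM in MCF10A and from 969 and 903 to 1757 and 2103 in MDA-MB-231 in P. N and HPP did not overlap in either line. It fell by 1.00 and rose by 1.04, a line difference of 2.05 (SE 0.412, edgeR adjusted p = 0.00593).

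ID2, given above, was the third such gene in P. In T the second was PGBD5 (chr1:230314490-230426332), a transposase-derived gene, which the naming rule left out for its low level. It was at 5.82 and 5.84 CPM in N and 1.41 and 1.6 in HPP in MCF10A, and at 0 in both N and 0.199 and 0.262 in HPP in MDA-MB-231, too near the floor for a fold. RCHY1, a ubiquitin ligase of p53, went the reverse way. It fell by 0.60 in MDA-MB-231, from 49 and 47.6 to 32.1 and 31.7 CPM in P, and was at 20.6 and 25.1 in N and 32.2 and 31.8 in HPP in MCF10A, a line difference of -1.08 (SE 0.223, edgeR adjusted p = 0.00711). PPP1R26, a regulator of protein phosphatase 1, rose by 0.96 in MDA-MB-231 in T, with a line difference of 1.58 (SE 0.306, edgeR adjusted p = 0.00596).

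The change was larger in MDA-MB-231 for 15 called genes in T and 17 in P, 11 and 14 of them rises. Besides JAG2, NOG, ANKRD1 and PFKFB3 these included DNAH11, a dynein heavy chain, with a rise of 3.31 in P in MDA-MB-231 and a line difference of 2.43, and TRNP1, a nuclear protein, with a rise of 1.84 and a line difference of 1.77. Both were picked after their values were seen.

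The largest line differences lay outside the lists in many cases. Among genes that fell in MCF10A, BEND3 (chr6:107065182-107115515), a transcriptional repressor, went from 4.89 and 7.74 to 0.730 and 0.582 CPM in MCF10A P mRNA. In MDA-MB-231 it was at 7.04 and 7.58 in N and 11.3 and 11 in HPP. The HPP libraries of the lines were on opposite sides of all N libraries, and the line difference was 3.88 (SE 0.520, edgeR adjusted p = 0.000324) in P and 4.20 (SE 0.534, edgeR adjusted p = 0.000199) in T. WWC1, a scaffold upstream of the Hippo kinases, went from 25.5 and 33.7 to 4.09 and 3.69 CPM in MCF10A while MDA-MB-231 was at 42.2 and 40.9 and 43.1 and 41.1, and its line difference of 2.95 (SE 0.306, edgeR adjusted p = 2.84e-05) had the lowest adjusted p in P together with LGALSL. LGALSL, a galectin-like protein, fell by 2.60 in MCF10A, with a line difference of 3.08 (SE 0.308, edgeR adjusted p = 2.84e-05). AP5B1, a subunit of the AP-5 adaptor, fell by 3.79 in MCF10A in T, with a line difference of 3.45 (SE 0.389, edgeR adjusted p = 9.29e-05).

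Further genes of this kind fell in MCF10A and did not pass in MDA-MB-231. SNPH, which anchors mitochondria, fell by 2.36 in T and had a line difference of 2.97 (SE 0.528, edgeR adjusted p = 0.00355). The zinc finger gene ZFP69B fell by 3.14 in T, with a line difference of 2.97 (SE 0.488, edgeR adjusted p = 0.00199), and TMCC2, a transmembrane protein, by 2.98 in P, with one of 3.17 (SE 0.493, edgeR adjusted p = 0.000945). LYPD1, of the Ly6 family, was called in P at 3.85 (SE 0.968, edgeR adjusted p = 0.026) and lost the call without 6 of the libraries. The protease gene ADAMTS15 had 1.07 and 1.08 CPM in N and 0 counts in both HPP libraries of MCF10A T mRNA, at least 18.8-fold lower against the floor of 3 counts, while MDA-MB-231 was at 31.8 and 18.9 in N and 20 and 25.9 in HPP.

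Genes that rose in MCF10A included C10orf10 (DEPP1), a FOXO-regulated gene. It went from 0.0764 and 0.159 to 10.9 and 14.1 CPM in MCF10A P mRNA and from 1.08 and 1.26 to 3.75 and 2.17 in MDA-MB-231, a line difference of -5.27 (SE 0.727, edgeR adjusted p = 0.000324). PRDM1, the repressor BLIMP1, went from 0.764 and 0.273 to 9.32 and 14.7 CPM in MCF10A and was at 2.94 and 3.23 in N and 4.87 and 4.94 in HPP in MDA-MB-231, a line difference of -3.94 (SE 0.716, edgeR adjusted p = 0.00279). SYNE2, which ties the nucleus to the cytoskeleton, rose by 3.80 in MCF10A, with a line difference of -3.94 (SE 0.765, edgeR adjusted p = 0.00463). TMCC3 rose by 4.83 in MCF10A in T, with a line difference of -3.85 (SE 0.724, edgeR adjusted p = 0.00485). ANKFN1 rose by 5.12 in P with a line difference of -4.77 (SE 1.10, edgeR adjusted p = 0.0156), lost without 6 of the libraries. NDNF, a secreted protein, had 0 counts in both normoxic MCF10A libraries of T and was at least 30.2-fold higher in HPP against the floor.

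**Figure D5:**
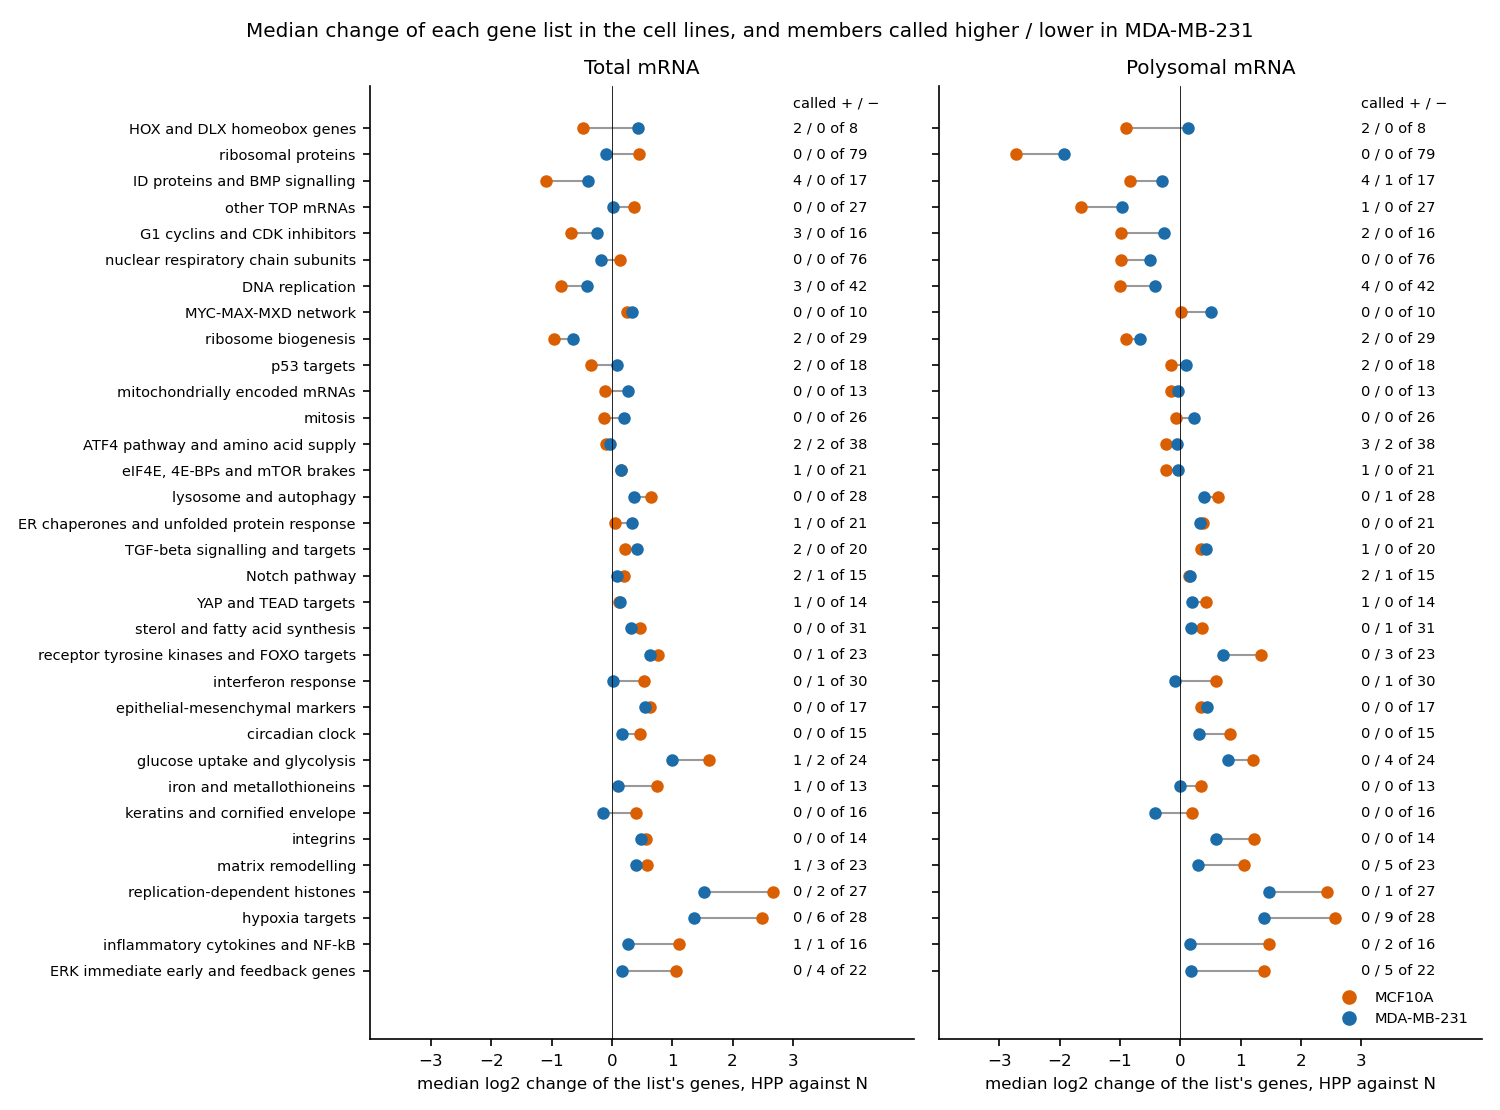
Median log2 change from N to HPP of each of 33 gene lists (rows) in MCF10A and MDA-MB-231 (points, x axis) in T and P, with the number of members called above 0 (+) and below 0 (-). The HIF targets and the histones lie furthest to the right and the ribosomal proteins in P furthest to the left, in both lines.

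In several further lists no gene was called. Of 17 epithelial and mesenchymal markers, 16 keratins and cornified envelope genes, 14 integrins, 15 clock genes, 10 genes of the MYC network, 76 nuclear subunits of the respiratory chain and 13 mitochondrial mRNAs, none was called in T or P. ITGB3, the integrin beta 3 chain, was at 0.726 and 6.88 CPM in N and 9.01 and 18.4 in HPP in MCF10A P mRNA. It was at 1.04 and 1.74 in N and 3.41 and 3.81 in HPP in MDA-MB-231. All HPP libraries lay above the N libraries of their line, neither change passed, and the line difference was -0.47 (SE 0.978, edgeR adjusted p = 0.87). It ran from -2.88 without MCF10A N P replicate 2 to 0.36 without replicate 1 of that group. Of the respiratory chain mRNAs 13 of 76 fell in P in MCF10A and none in MDA-MB-231, against 12.3% and 1.99% of all genes, with a median line difference of 0.54 in P that was -0.03 without MCF10A N P replicate 1.

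The line differences in hypoxia alone and with PP242 alone were fewer. For H against N they were called for 39 genes in T (0.315%) and 53 in P (0.428%), and for NPP against N for 2 in T (0.0162%) and 21 in P (0.170%). All 3 contrasts share the normoxic libraries, so that their values are set side by side and not compared. CA12 had a line difference in P of -4.13 in H, 0.04 in NPP and -3.99 in HPP. EGLN3 had -4.42, -0.07 and -3.43 in the same order, VLDLR -3.71, -0.23 and -3.57, and SPRY1 -5.27, -0.89 and -4.25. For these 4 genes the difference was called in H and not in NPP.

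Other genes were called in NPP. HAS2 had a line difference in P of -1.95 in H, -3.31 in NPP and -4.02 in HPP. ID2 had -0.12, 3.74 and 4.24, SMAD6 0.39, 2.41 and 3.45, and NOG -0.36, 2.16 and 2.07. These 4 were called in NPP and not in H. TXNIP was called in each, at -2.87, -2.73 and -3.79. BEND3, at 0.52, 1.71 and 3.88, EIF4E, at 0.42, 0.32 and 1.68, and PHLDA1, at -0.74, -1.05 and -1.97, were called in HPP only. CXCL8, not called in HPP, had a line difference in P of 3.06 in H (edgeR adjusted p = 0.0203) and -2.04 in NPP.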

How the data were processed

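MCF10A and MDA-MB-231 cells in N, H, NPP and HPP were each sequenced as T and P mRNA with 2 biological replicates. Per the labels, the authors used STAR, RSEM and edgeR, and deposited estimated counts per gene in 1 table of 16 libraries for each cell line. The library kit does not mark strand. The labels name GRCh37, whereas the study's methods and the gene identifiers belong to GRCh38. Positions were therefore looked up by gene identifier in GENCODE version 44 on GRCh38, and reads were not used here. Rounding changed 0 of the deposited values, and 0 columns lacked a sample.

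Protein-coding genes that passed edgeR's filter on low counts in each line were fitted in 1 model of 32 libraries and 16 groups with TMM scaling (R 4.3.3, edgeR 4.0.16). Line differences in T, P and Te were tested by the quasi-likelihood test with Benjamini-Hochberg adjustment over all 12374 genes, with 16 residual degrees of freedom. A comparison of 2 libraries against 2 allows no exact permutation p below 0.333, and no permutation test of the line difference was run. The steps were tested on simulated counts. DESeq2 1.42.0 and limma 3.58.1 with voom were alternatives, beside other filters, scalings, sets of libraries, a replicate block, thinning to the smallest library and, chosen after seeing the data, an offset for transcript length, fits of each line alone and, for Te, a block for each culture.

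Named were, among called genes with at least 1 CPM in both libraries of N or of HPP in each line and HPP libraries on one side of N in the line with the larger change, the 8 with the largest line difference in each direction, the 6 most opposed, and up to 4 per list. CA9, NDRG1, PPFIA4, VEGFA, DDIT4, ITGB3, ID1, ID3, CXCL8 and TXNIP were always named. Te had no called gene to name. One gene that met the rule is not reported here. The comparison, its genes and the 33 lists were chosen with earlier results of these data known. List counts and medians are descriptions without a test. Libraries held 18340916 to 46032327 counts, so that at the lowest levels, near 0.1 CPM, a value rests on few reads.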

Additional observations from a re-analysis of the deposited data

Results flagged for a closer look

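The line difference is itself a test of whether the lines responded differently, and it called 403 genes in T and 519 in P by edgeR. The genes below also passed in opposite directions within each line. ZADH2 had a line difference of 1.75 in T and 1.75 in P, with all 4 N libraries of MCF10A above and all 4 of MDA-MB-231 below the HPP libraries of their line and fraction. ID2 had a line difference of 4.24 in P, at under 2 CPM in MDA-MB-231. ANKRD1 had one of 2.05 in P. PGBD5 had one of 7.93 in T, where both N libraries of MDA-MB-231 held 0 counts, so that its size depends on the prior count of the fit. Groups held 2 samples, too few to look for a sample far from the others.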

How the results depend on the processing

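The calls rested on few replicates and on the fit. Of the tested genes 3.26% (403) in T and 4.19% (519) in P were called. DESeq2 called 5.59% (692) and 7.56% (935), limma voom with a weight for each line 1.66% (205) and 2.51% (310), the 8 libraries of the fraction alone 0.857% and 0.485%, an adjusted p under 0.10 5.00% (619) and 6.86% (849), and the offset for transcript length 5.02% (619) and 6.90% (851). With counts thinned to the smallest library the share was 2.22% (265) in T and 2.98% (356) in P. Without 1 library the T share lay between 1.08% (without MCF10A N T replicate 2) and 3.57%, and the P share between 1.72% (without MDA-MB-231 HPP P replicate 2) and 4.61%. DESeq2 kept 402 of the 403 calls in T and 515 of the 519 in P, and limma voom kept 203 and 301. In Te DESeq2 called 2 genes (0.0162%) and every other setting and left-out library 0. The share of calls above 0 in T, 55.8%, was 40.1% without MCF10A HPP T replicate 1 and 67.7% without MCF10A HPP T replicate 2, and in P it was 33.3% with only the 8 libraries of the fraction.

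Changed genes within a line, 3347 in MCF10A and 297 in MDA-MB-231 in T and 4470 and 561 in P in the joint fit, were 1792, 1693, 2701 and 2526 in fits of each line alone. Why the settings differ was not tested. Of 135 called differences of named genes, 71 were kept without each library in turn, 50 under every other setting, and 44 under all of both. Limma voom lost 43 of the 135, the 8 libraries of the fraction 75, and DESeq2 0. Of the other named differences, 23 passed under at least 1 setting or without 1 library. No direction of a called difference was reversed.

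Replicate numbers were shared by the groups. The deviations of same-numbered N and HPP libraries correlated at 0.309 in T and 0.344 in P in MCF10A, and at 0.0996 and -0.000431 in MDA-MB-231, so the numbers were not taken to pair the libraries. A replicate block within each line gave 534 calls (4.32%) in T and 708 (5.72%) in P, and a replicate block within each line and fraction 877 (7.09%) and 1327 (10.7%). Both gave 0 in Te. A block for each culture, which the T and P libraries of a replicate share, was chosen after seeing the data and gave 0 in Te between the lines, and 0 in place of 117 within MCF10A.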

Other observations

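Genes that are not protein-coding were tested in a fit of all 15135 genes that passed the filter, and 18 of 2753 (0.654%) were called in T and 20 (0.726%) in P (edgeR), against 2.75% and 3.15% of all genes of that fit. Of 617 lincRNA genes, 4 (0.648%) were called in T and 11 (1.78%) in P. MIR22HG, the host gene of miR-22, went from 92.5 and 75.5 to 14.1 and 14.9 CPM in MCF10A T mRNA and from 30.1 and 29.8 to 18.5 and 17.1 in MDA-MB-231, with a line difference of 1.78 (SE 0.357, edgeR adjusted p = 0.0085) in T and 1.80 in P. HPP lay below N without overlap in both lines. MIR137HG was at 26.1 and 35 CPM in N and 25 and 27 in HPP in MDA-MB-231 T mRNA, and at 0.297 and 0.341 in N and 1.05 and 1.19 in HPP in MCF10A, a line difference of -2.02 (SE 0.493, edgeR adjusted p = 0.0294). The values say nothing of the miRNAs these genes host. RP11-982M15.6, a lincRNA, was higher in HPP in MCF10A only, at 1.57 and 1.9 against 0.178 and 0.219 CPM in T, with a line difference of -2.94 (SE 0.68, edgeR adjusted p = 0.0211). The antisense gene ATP6V0E2-AS1 had line differences of 1.84 in T and 2.27 in P, and without strand its reads cannot be told apart from those of the gene it overlaps. These 4 were the lincRNA and antisense genes called in both fractions, and other non-coding classes were not searched for such genes.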
